A study of Mus musculus with 16 samples.

Results

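The p53 target genes described here are 10 genes that the transcription factor p53 is known to induce in mouse or human cells: Bbc3, Bax, Aen, Ccng1, Cdkn1a, Mdm2, Trp53inp1, Zmat3, Phlda3 and Eda2r. They were taken by name from the 15571 genes in the table, all 10 were present, and all 10 passed the filter on low counts. The choice was made with earlier results of these data known. They were measured by RNA sequencing in mouse Th17 cells, helper T cells that make IL-17. The design combined loss of PDH in T cells with the addition of sodium acetate. PDH, pyruvate dehydrogenase, turns pyruvate into acetyl-CoA in mitochondria, and acetate gives cells acetyl-CoA by another route. The comparisons ask how each p53 target stood in cells without PDH, and how it stood when acetate was added to cells with or without the enzyme.

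Each of 4 groups held 4 libraries. KO acetate cells carried loxP-flanked PDH alleles with CD4-Cre and were differentiated with 10 mM sodium acetate, KO untreated cells had the same genotype without acetate, WT acetate cells carried the loxP-flanked alleles without Cre and were given 10 mM sodium acetate, and WT untreated cells had neither Cre nor acetate. All came from naive CD4 T cells of spleen and lymph nodes, cultured for 3 days on anti-CD3 with anti-CD28, IL-6, TGFβ and an antibody to IFNγ, so every group carried the floxed alleles and the same activation. The CD4 promoter drives Cre in developing T cells of both the CD4 and the CD8 lineage. No group was a control for Cre alone or for sodium, so these cannot be told apart from the knockout and from acetate. The labels give no age, and they leave unsaid whether replicates are separate mice or separate cultures. The p-values therefore cover variation among these libraries alone, which may be technical. Sample titles write PHD where the protocols and the series title write PDH, and the second reading was used.

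Library totals lay between 24.57 and 33.72 M estimated counts. Values are given as CPM, counts scaled to an effective library size of 1 M. Calls required an adjusted p under 0.05 in edgeR's quasi-likelihood test, and higher, lower, rose and fell refer to such calls. A single gene without a name in the reference tables took over 3% of the counts in 4 libraries, namely WT untreated replicate 1, KO untreated replicates 1 and 2 and KO acetate replicate 2. Fits without these 4 libraries kept only replicates 3 and 4 of KO untreated, and fewer WT untreated and KO acetate libraries. Whether calls lost in those fits went with the fewer libraries or with the unnamed gene was not tested. Pdha1, which encodes a PDH subunit, averaged 248 CPM in KO acetate libraries, 225 CPM in KO untreated libraries, 259 CPM in WT acetate libraries and 247 CPM in WT untreated libraries, with SDs between 10.8 and 13.0 CPM (n = 4 each). A whole-gene count does not show the loss of an exon and so does not check the genotype labels. All 7 T cell markers and all 6 Th17 markers were in the table. B cell, myeloid, NK and γδ T markers, summed for each type on its own, reached at most 8.19 CPM in any library. That value was of Eomes, the only NK marker in the table. Csf1r, Adgre1, Ncr1, Klrb1c and all 3 erythroid markers were not among the genes analysed.

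p53, encoded by Trp53, is kept low in resting cells by the ubiquitin ligase Mdm2 and accumulates after DNA damage and other stresses. It then induces genes that stop the cell cycle, such as Cdkn1a, genes that open the mitochondrial route to apoptosis, such as Bbc3 and Bax, and its own inhibitors, Mdm2 among them. In thymocytes and activated T cells this programme is best known for removing or arresting cells after damage. Several of these genes also answer to other factors: the integrated stress response and FOXO factors can induce Bbc3 without p53.

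Without acetate, 3 of the 10 p53 targets were higher in KO than in WT cells and none was lower. These were Bbc3, Bax and Phlda3. Acetate lowered 6 of the 10 in each genotype, and 4 of them, Bbc3, Bax, Ccng1 and Eda2r, fell in both. With acetate in both genotypes, 1 target, Eda2r, was higher in KO cells. Cdkn1a and Mdm2, the best known inhibitors of the cell cycle and of p53 in the set, were called in no comparison by the fit without a replicate term. These counts are read below against the share of all genes called in the same comparison.

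Bbc3 encodes PUMA, a BH3-only protein that frees or activates Bax and Bak at the mitochondrial outer membrane. It was at 34.0, 41.8, 40.5 and 36.0 CPM in the KO untreated libraries, against 22.4, 24.2, 24.8 and 24.5 CPM in the WT untreated libraries. Every KO untreated library lay above every WT untreated one (log2 fold change 0.67, SE 0.118, adjusted p = 0.000271). With acetate, Bbc3 was at 17.5, 24.6, 19.96 and 18.8 CPM in KO cells and 14.7, 22.9, 16.8 and 16.9 CPM in WT cells. These ranges overlapped, and the difference between them was not called (log2 fold change 0.18, SE 0.120, adjusted p = 0.444). Within KO cells all 4 acetate libraries lay below all 4 untreated ones, and Bbc3 fell by 0.91 on the log2 scale (SE 0.119, adjusted p = 6.8e-06). In WT cells it also fell, by 0.43 (SE 0.120, adjusted p = 0.0212), but WT acetate replicate 2 at 22.9 CPM lay within the WT untreated range. That call was lost without WT acetate replicate 1 or 4 or without WT untreated replicate 2 or 3 (adjusted p 0.0507 to 0.078). The acetate effect was more negative in KO than in WT cells by 0.49 (SE 0.168), and this difference did not pass the threshold (adjusted p = 0.0667). It did pass without KO acetate replicate 2, KO untreated replicate 1 or WT acetate replicate 1 (adjusted p 0.0205 to 0.05) and in DESeq2.

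Bax, the pore-forming protein on which PUMA acts, had a similar order of group means. It was at 195, 185, 184 and 208 CPM in KO untreated libraries, against 158, 160.1, 149 and 153 CPM in WT untreated libraries. The 2 groups did not overlap, and Bax was higher in KO cells (log2 fold change 0.32, SE 0.105, adjusted p = 0.0256). That call was lost without KO untreated replicate 1 or 4 or without WT untreated replicate 1, 3 or 4 (adjusted p 0.0509 to 0.0735), and without the 4 libraries rich in the unnamed gene (0.34, adjusted p = 0.143). With acetate it was at 93.1, 129, 114 and 144 CPM in KO cells and 95.2, 121, 128 and 118 CPM in WT cells, 2 overlapping ranges (log2 fold change 0.06, SE 0.105, adjusted p = 0.824). All acetate libraries lay below all untreated ones of their own genotype. Bax fell by 0.68 in KO cells (SE 0.105, adjusted p = 5.01e-05) and by 0.42 in WT cells (SE 0.105, adjusted p = 0.011). The WT call was lost without the libraries rich in the unnamed gene (adjusted p = 0.0578). The difference between the acetate effects was −0.26 (adjusted p = 0.283).

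Aen, an exonuclease named for enhancing apoptosis, showed smaller differences with acetate than Bbc3 and Bax. Its level was 98.6, 112, 109 and 112 CPM in KO acetate libraries, against 122, 116, 123 and 125 CPM in KO untreated libraries. All acetate values lay below the untreated ones (log2 fold change −0.17, SE 0.0687, adjusted p = 0.0474). The call was lost in 10 of the 16 fits that left out 1 library, under scaling by library totals (adjusted p = 0.484), and without the libraries rich in the unnamed gene (adjusted p = 0.0817). In WT cells Aen was at 82.4, 104, 105 and 104 CPM with acetate and 108, 109, 114 and 109 CPM without, and WT acetate replicate 1 at 82.4 CPM stood far below the other 3 acetate libraries. The difference was not called (−0.16, adjusted p = 0.141), nor was that between KO and WT cells without acetate (0.15, adjusted p = 0.102).

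**Figure D1:**
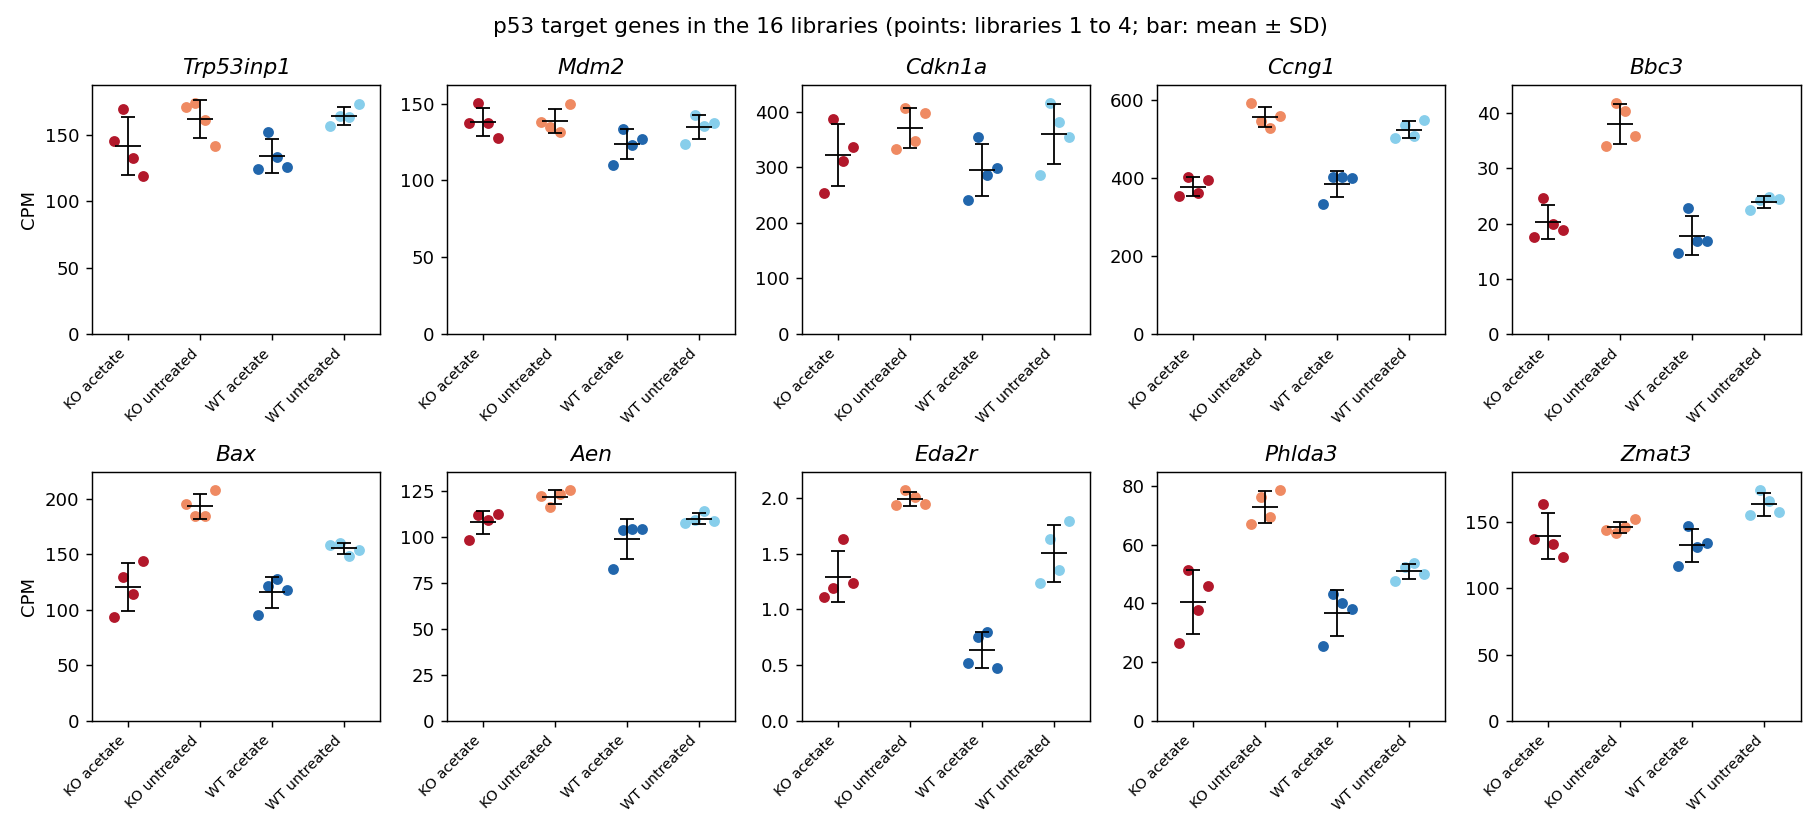
CPM of the 10 p53 target genes in each of the 16 libraries, 1 panel per gene, with groups in the order KO acetate, KO untreated, WT acetate, WT untreated; points are libraries, horizontal bars the group mean and error bars the SD (n = 4). KO untreated libraries are the highest for Bbc3, Bax, Phlda3, Aen and Eda2r, while the libraries of the groups overlap for Mdm2 and Cdkn1a.

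Ccng1 encodes cyclin G1, a p53 target that acts with protein phosphatase 2A on Mdm2. Its libraries separated by acetate. It was at 352, 403, 360.4 and 393 CPM in KO acetate libraries, against 590.2, 545, 528 and 557 CPM in KO untreated libraries. WT cells had 334, 401, 402 and 398 CPM with acetate and 502, 536, 507 and 548 CPM without. Every acetate library lay below every untreated library of either genotype. The fall was 0.56 in KO cells (SE 0.0691, adjusted p = 3.53e-06) and 0.45 in WT cells (SE 0.0690, adjusted p = 0.000277). KO and WT cells were not called different without acetate (0.09, adjusted p = 0.353, 95% interval −0.06 to 0.23) or with it (−0.03, adjusted p = 0.885, 95% interval −0.17 to 0.12). The difference between the acetate effects was −0.11, adjusted p = 0.505.

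Cdkn1a encodes p21, the inhibitor of cyclin-dependent kinases through which p53 arrests the cell cycle. It was at 254, 387, 311 and 337 CPM in KO acetate cells, 332, 407, 347 and 398 CPM in KO untreated cells, 241, 355, 286 and 299 CPM in WT acetate cells and 287, 415, 382 and 355 CPM in WT untreated libraries. All 4 groups overlapped. Replicate 1 was the lowest library in each group. The 95% interval of the log2 difference between KO and WT cells without acetate was −0.25 to 0.33 (adjusted p = 0.833). For acetate it was −0.49 to 0.09 in KO cells (adjusted p = 0.251) and −0.58 to 0.0034 in WT cells (adjusted p = 0.181). With the replicate number as a block in edgeR, Cdkn1a was lower with acetate in KO cells (adjusted p = 0.00865) and in WT cells (adjusted p = 0.00401). The replicate numbers share no stated source.

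Mdm2, the ligase that marks p53 for degradation and is itself a p53 target, was at 137, 150.2, 137 and 127 CPM in KO acetate libraries, against 138, 135, 132 and 149.5 CPM in KO untreated libraries. In WT cells it was at 110.2, 133, 123 and 127 CPM with acetate and 124, 142, 136 and 138 CPM without. The groups overlapped in every comparison. The 95% interval of the log2 difference was −0.10 to 0.18 for KO against WT without acetate, −0.15 to 0.14 for acetate in KO cells and −0.27 to 0.01 for acetate in WT cells. The log2 fold changes of Bbc3 in the same 3 comparisons lie outside these intervals. For acetate in WT cells, however, the 95% interval of Bbc3, −0.68 to −0.18, overlaps that of Mdm2. The genes were not tested against each other.

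Promoter sequence was set beside 4 genes. Ccng1 and Bax fell with acetate in both genotypes, and Cdkn1a and Mdm2 were called in no comparison by the fit without a replicate term. All 4 hold a match to the decamer consensus of a p53 half-site upstream of a start site. A half-site is only a part of the p53 response element, so a single match is not a whole element. Sequences are RefSeq promoters in GRCm38.p6, read 5′ to 3′ on the gene's strand, with the match in capitals and with annotated exonic bases left out.
Ccng1, chr11:40755312-40755536, minus strand: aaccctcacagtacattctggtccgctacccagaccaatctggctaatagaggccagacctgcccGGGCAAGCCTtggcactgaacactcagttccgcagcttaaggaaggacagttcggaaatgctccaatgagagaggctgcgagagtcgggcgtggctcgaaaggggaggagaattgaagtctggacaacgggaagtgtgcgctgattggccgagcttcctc
Bax, chr7:45466899-45467148, minus strand: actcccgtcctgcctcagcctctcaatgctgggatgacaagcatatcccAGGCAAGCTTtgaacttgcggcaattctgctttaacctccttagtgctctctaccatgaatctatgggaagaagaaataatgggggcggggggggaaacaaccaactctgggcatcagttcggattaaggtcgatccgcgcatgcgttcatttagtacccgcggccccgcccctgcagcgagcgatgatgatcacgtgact
Cdkn1a, chr17:29090729-29090975, plus strand: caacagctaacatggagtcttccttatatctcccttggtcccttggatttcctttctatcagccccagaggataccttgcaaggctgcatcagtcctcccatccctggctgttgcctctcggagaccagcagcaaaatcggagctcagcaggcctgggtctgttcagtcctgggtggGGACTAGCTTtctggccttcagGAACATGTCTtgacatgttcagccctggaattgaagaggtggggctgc
Mdm2, chr10:117710759-117711008, minus strand: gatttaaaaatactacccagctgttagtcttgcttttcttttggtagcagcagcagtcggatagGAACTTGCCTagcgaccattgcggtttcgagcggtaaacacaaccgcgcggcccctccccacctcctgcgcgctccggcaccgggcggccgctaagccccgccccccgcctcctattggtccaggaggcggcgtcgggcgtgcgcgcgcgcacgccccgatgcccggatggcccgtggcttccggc
The match began 185 bases before the start in Ccng1, 201 bases before it in Bax, 186 bases before it in Mdm2, and 73 and 51 bases before it in Cdkn1a. Of the 10 targets, 8 had an entry in the promoter table, with 12 windows of 250 bases before to 50 after a start. The decamer, which reads the same on both strands and was searched alone, was found in 6 of the 12 windows and in 5 of the 8 genes, the fifth being Aen, whose 2 windows overlap and hold the same match. A match was held by 8.36% of all 32851 windows and 9.55% of all 27025 genes. The 3 windows of Bbc3, those of Phlda3 and Eda2r and the window at the other Cdkn1a start held none. Sites outside these windows were not searched, so a window without a match does not show that a gene lacks a site. Whether a match goes with a change in level was not tested.

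Trp53inp1, a stress protein that promotes p53 activity and autophagy, averaged 142 ± 21.7 CPM in KO acetate cells, 162 ± 14.6 CPM in KO untreated cells, 134 ± 12.8 CPM in WT acetate cells and 164 ± 6.97 CPM in WT untreated cells (SD, n = 4 each). It fell with acetate in WT cells (log2 fold change −0.30, SE 0.0930, adjusted p = 0.0381), with no overlap between the groups. The call was lost without WT acetate replicate 1, 3 or 4, without WT untreated replicate 2, 3 or 4, and under scaling by library totals (adjusted p = 0.0711). In KO cells the acetate difference was −0.19, adjusted p = 0.1, and KO and WT cells without acetate had a difference of −0.02, adjusted p = 0.883.

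Zmat3 encodes a zinc finger protein that binds RNA and alters splicing. It averaged 139.7 ± 17.3 CPM in KO acetate cells, 146 ± 4.36 CPM in KO untreated cells, 133 ± 12.4 CPM in WT acetate cells and 164 ± 8.45 CPM in WT untreated cells. WT untreated was the highest group, as for Trp53inp1. The fall with acetate in WT cells was called (log2 fold change −0.30, SE 0.0780, adjusted p = 0.0128), and was lost without WT acetate replicate 1. KO acetate cells were lower than WT untreated cells (−0.23, adjusted p = 0.0375), though the libraries overlapped and the call was lost under scaling by library totals (adjusted p = 0.0916) and without KO acetate replicate 1, 3 or 4 or WT untreated replicate 2 or 3 (adjusted p 0.0796 to 0.113). The comparison without acetate was −0.16, adjusted p = 0.113.

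Phlda3, a pleckstrin homology protein that competes with the kinase AKT for membrane lipids, was at 67.0, 76.2, 69.4 and 78.6 CPM in KO untreated libraries, against 47.8, 52.3, 53.7 and 50.2 CPM in WT untreated libraries. No KO untreated value lay within the WT untreated range (log2 fold change 0.51, SE 0.176, adjusted p = 0.0334). That call was lost without KO untreated replicate 2, 3 or 4, without any 1 WT untreated replicate, and without the libraries rich in the unnamed gene (0.50, adjusted p = 0.16). With acetate it was at 26.4, 51.4, 37.7 and 46.1 CPM in KO cells and 25.4, 43.2, 40.2 and 38.0 CPM in WT cells. All acetate libraries lay below the untreated ones of their genotype, and replicate 1 was the lowest in both acetate groups. Phlda3 fell with acetate in KO cells (log2 fold change −0.85, SE 0.178, adjusted p = 0.0013). The WT difference was not called (log2 fold change −0.47, SE 0.177, adjusted p = 0.0897).

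Eda2r, a TNF receptor family member that binds the A2 form of ectodysplasin, was the least counted of the set, with 12 to 64 estimated counts per library. It was at 1.11, 1.20, 1.63 and 1.24 CPM in KO acetate libraries, against 0.520, 0.750, 0.796 and 0.475 CPM in WT acetate libraries. All KO acetate libraries lay above all WT acetate ones (log2 fold change 1.01, SE 0.228, adjusted p = 0.0381). The call was lost in 10 of the 16 fits without 1 library, under scaling by library totals (adjusted p = 0.0597), and when only these 2 groups were fitted (adjusted p = 0.144). Untreated cells had 1.94, 2.07, 2.01 and 1.95 CPM in KO and 1.24, 1.64, 1.35 and 1.79 CPM in WT libraries, a difference of 0.41, adjusted p = 0.144. Eda2r fell with acetate by 1.23 in WT cells (SE 0.226, adjusted p = 0.00125) and by 0.62 in KO cells (SE 0.215, adjusted p = 0.0252), with no overlap in either. The KO call was lost without KO acetate replicate 1, 2 or 4, under scaling by library totals (adjusted p = 0.0877) and without the libraries rich in the unnamed gene (adjusted p = 0.142). The difference between the 2 acetate effects was 0.60, adjusted p = 0.226.

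**Figure D2:**
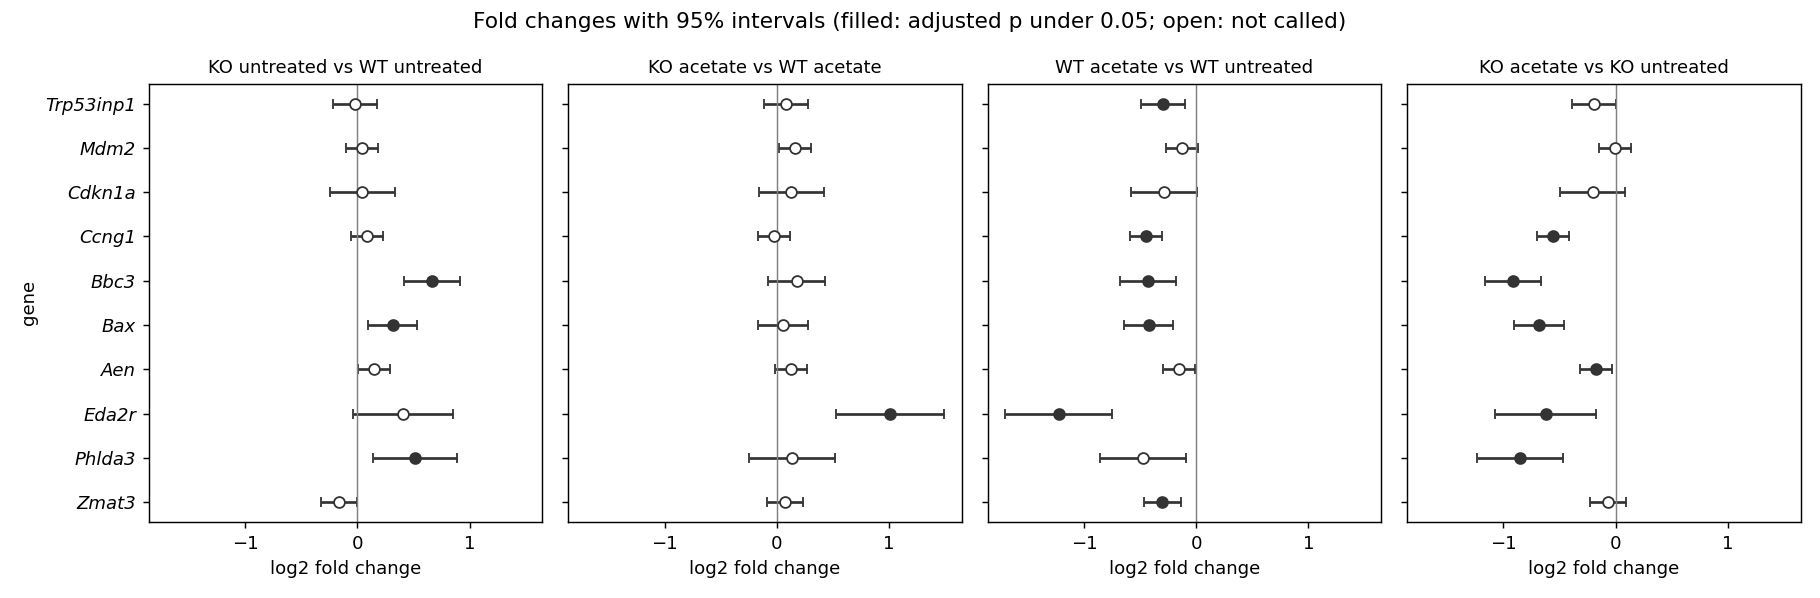
Log2 fold changes of the 10 p53 target genes with 95% intervals for KO against WT without and with acetate and for acetate against untreated in KO and in WT cells; filled points passed an adjusted p of 0.05. All 10 points lie below 0 in both acetate comparisons, although Mdm2 and Zmat3 in KO cells lie above 0 under scaling by library totals, while the KO comparisons have points on both sides of 0.

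Counted over the set, KO against WT without acetate gave 3 higher and 0 lower of 10. Among all 14985 genes tested 18.0% were higher and 18.6% lower, and a count of 3 in 10 is not far from that share. Scaling by library totals split the calls over all genes into 1914 higher and 3217 lower, against 2699 and 2782 as reported. The median log2 fold change of the 10 was 0.12, against 0.01 over all genes. The count was 1 when KO untreated replicate 4 or WT untreated replicate 1, 3 or 4 was left out, when Bbc3 alone was called, and 5 when only these 2 groups were fitted. With acetate in both genotypes, 1 target was higher and 0 were lower, where 0.487% of all genes were higher and 0.514% lower (28 and 50 genes with library totals, 73 and 77 as reported). The median of the targets was 0.13. At an unadjusted p under 0.05, 4 targets passed without acetate and 2 with it, where 6823 and 2762 of the 14985 genes did.

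Acetate in KO cells gave 0 higher and 6 lower, where 22.1% of all genes were higher and 21.6% lower. Acetate in WT cells gave 0 higher and 6 lower, where 7.89% of all genes were higher and 7.55% lower. In both genotypes 6 of 10 lower stands above the share of all genes, a difference that was not tested. Because the 10 were chosen with earlier results of these data known, it cannot be told apart from that choice. With library totals the calls over all genes were 4229 higher and 2085 lower in KO cells, against 3314 and 3236 as reported, and 1196 higher and 558 lower in WT cells, against 1183 and 1132. The medians were −0.38 in KO and −0.36 in WT cells, against −0.01 and 0.00275 over all genes. All 10 fitted differences were negative in both genotypes, except that scaling by library totals turned Mdm2 (0.10) and Zmat3 (0.03) in KO cells, a scaling that put the median of all genes at 0.09, and that Mdm2 in KO cells also turned without KO acetate replicate 4 (0.032) or KO untreated replicate 4 (0.023). The WT count was 3 without WT acetate replicate 1. In bulk samples, fewer cells of a type and less RNA per cell cannot be told apart. The summed CPM of the 2 CD8 T cell markers moved with acetate: it was 13.7 to 18.2 in KO acetate and 5.13 to 8.35 in KO untreated libraries, and 13.1 to 17.2 in WT acetate and 9.08 to 11.2 in WT untreated libraries. The sum of the 7 T cell markers was 2955 to 3140.3 in KO acetate and 3242 to 3604 in KO untreated libraries, and 3106 to 3318 in WT acetate and 3573 to 3888 in WT untreated libraries. That of the 6 Th17 markers was 1579 to 2809.9 in KO acetate and 634 to 909.7 in KO untreated libraries, and 1227 to 2066 in WT acetate and 683 to 1089.7 in WT untreated libraries. The part of these shifts in the acetate differences was not tested.

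The difference between the acetate effects of KO and WT cells, tested as an interaction, was called for 0 of the 10 by edgeR, where 6.37% of all genes were called above 0 and 5.54% below (939 and 442 genes with library totals, 955 and 830 as reported). Bbc3 and Zmat3 (0.24, adjusted p = 0.177) had an unadjusted p under 0.05, with opposite signs, where 3978 of the 14985 genes did, and DESeq2 called 1, Bbc3. KO acetate against WT untreated cells gave 0 higher and 3 lower, where 12.9% of all genes were higher and 13.5% lower (1911 and 1254 genes with library totals, 1935 and 2019 as reported). The 3 were Ccng1 (−0.47, adjusted p = 0.000102), Bax (−0.37, adjusted p = 0.0158) and Zmat3. Without KO acetate replicate 2 the count was 5, and the Bax call was lost without the libraries rich in the unnamed gene (adjusted p = 0.0622). Bbc3, the target that differed most between the genotypes without acetate, was not called here (−0.25, adjusted p = 0.134, 95% interval −0.50 to 0.0026).

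Ordered by group mean, KO untreated was the highest of the 4 groups for 8 of the 10 targets and WT untreated for the other 2. WT acetate was the lowest group for 9, and KO acetate for Ccng1. Neighbouring acetate groups were called different for Eda2r only, so for the other 9 the order of KO acetate and WT acetate is not settled against the spread between libraries. The untreated groups were called different for Bbc3, Bax and Phlda3 only, so for the other targets their order is not settled either. For Mdm2 the means of KO untreated (138.6 CPM) and KO acetate cells (138.1 CPM) nearly coincided. The share of all genes with these orders was not counted. Relative to the WT untreated mean, single libraries ranged from −0.95 to 0.16 on the log2 scale in KO acetate, from −0.22 to 0.80 in KO untreated, from −1.66 to −0.01 in WT acetate and from −0.33 to 0.25 in WT untreated cells. The lowest WT acetate value belongs to Eda2r and the lowest KO acetate value to Phlda3.

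**Figure D3:**
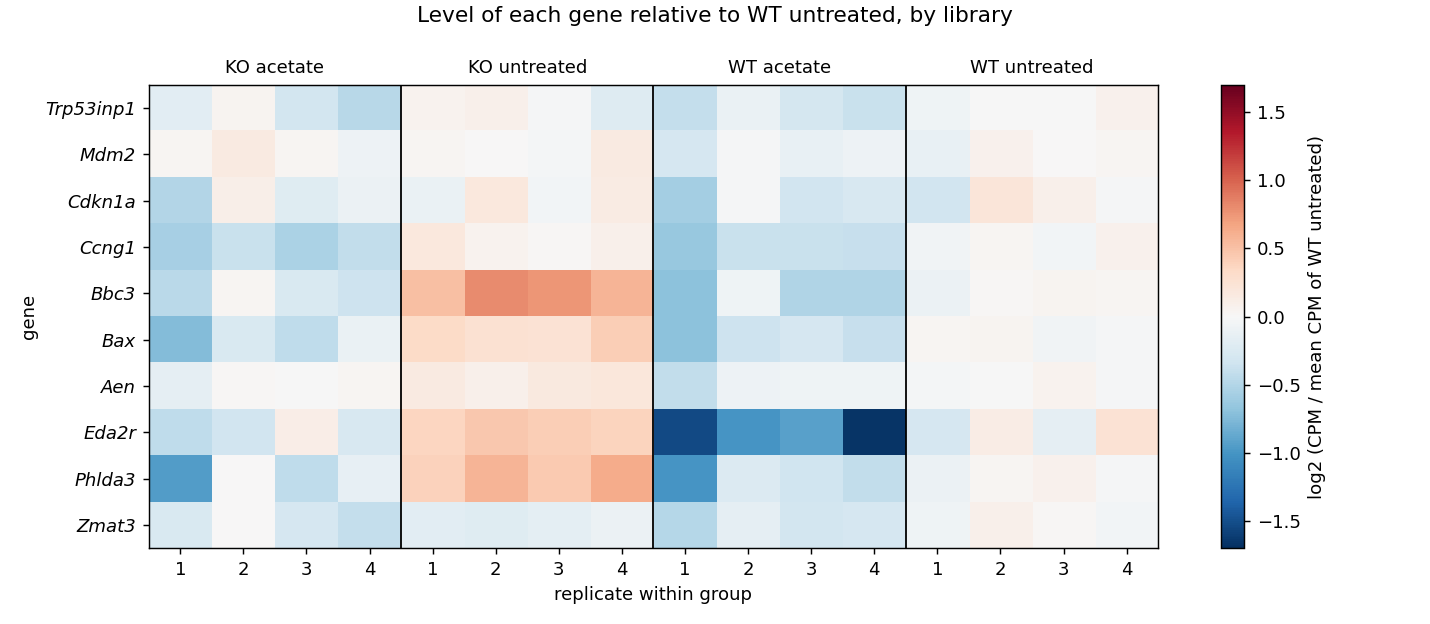
Log2 level of each p53 target gene (rows) in each library (columns, KO acetate, KO untreated, WT acetate, WT untreated) relative to its mean in WT untreated libraries. Bbc3, Phlda3, Eda2r, Bax, Aen and Ccng1 stand above 0 in all 4 KO untreated libraries, and no gene in WT acetate libraries stands above 0.

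Libraries also differed within groups in ways that many targets shared. These deviations were computed for the 10 targets alone. A shift of the targets therefore cannot be told apart from one shared by all genes of a library. In WT acetate replicate 1 all 10 targets lay below their group mean, on average by 0.24 on the log2 scale, and in KO acetate replicate 1 this held for 9 targets (mean deviation −0.18). In WT untreated replicate 1 it held for 9 targets (−0.11). WT acetate replicate 2 had 0 targets below its group mean (mean deviation 0.19) and KO acetate replicate 2 had 1 (0.18). The KO untreated libraries deviated by 0.03 or less on average. In each of the 4 groups replicate 1 had the lowest and replicate 2 the highest mean deviation. The labels name no batch.

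The genes whose centred profiles over the 16 libraries were nearest to those of the changing targets were found by the root mean square difference of log2 CPM among 9131 candidates. For Ccng1 these were Ddias at 0.063, Ei24 at 0.074 and Tnfrsf25 at 0.079, set beside an SD of Ccng1 itself of 0.28. For Bbc3 they were Aldh4a1 at 0.11, Ufc1 at 0.13 and Aldh16a1 at 0.13 (SD of Bbc3 0.46). For Bax they were Bloc1s1 at 0.092, Gfer at 0.12 and Cnppd1 at 0.12 (SD of Bax 0.35). Phlda3 was nearest to Ptp4a3 at 0.13, to Bax at 0.16 and to Aldh4a1 at 0.17 (SD of Phlda3 0.48). Eda2r, with its low counts, had no close profile: Abcb1b and Plk2 at 0.33 and Apobr at 0.34 were the nearest (SD of Eda2r 0.64).

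The lists below were described by their counts, to be read against the shares of all genes given above for each comparison. Trp53, which the naming rule picked only for KO acetate against WT untreated and was otherwise named after its values were seen, was at 193 ± 31.3 CPM in KO untreated and 188 ± 18.9 CPM in WT untreated cells (0.04, adjusted p = 0.82). In KO cells acetate lowered it to 140.2 ± 11.3 CPM (log2 fold change −0.46, SE 0.108, adjusted p = 0.00207), with no overlap. The WT acetate mean was 159.6 ± 19.1 CPM (−0.24, adjusted p = 0.153 against WT untreated). Of 12 tested regulators, Trp53 included, 3 were higher and 3 lower in KO than in WT cells without acetate, counts near the 18.0% and 18.6% of all genes. Among them the checkpoint kinase Chek1 (0.51, adjusted p = 0.000142) and the p53 inhibitor Mdm4 (0.43, adjusted p = 0.000505) were higher, and Trp53bp1, a mediator of the break response, was lower (−0.39, adjusted p = 9.55e-05). With acetate in KO cells 2 were higher and 6 lower, again with Trp53bp1 (0.39, adjusted p = 5.31e-05), Chek1 (−0.57, adjusted p = 2.74e-05) and Mdm4 (−0.38, adjusted p = 0.000953) first by adjusted p; 3 were lower under scaling by library totals. In WT cells acetate lowered 2, the kinases Hipk2 (−0.46, adjusted p = 0.0155) and Atr (−0.28, adjusted p = 0.0204), and raised 0. Both of these calls were lost without WT acetate replicate 2, that of Atr also without WT acetate replicate 4 or WT untreated replicate 4, and that of Hipk2 without WT untreated replicate 1. Of the 12, 0 were called between KO and WT cells with acetate.

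Of the other p53 targets that act in arrest and growth control, without acetate 7 of 11 tested were higher and 3 lower in KO than in WT cells, with a median log2 fold change of 0.55. Gadd45a, a stress sensor that binds PCNA and p21, averaged 12.9 ± 1.85 CPM in KO untreated and 3.35 ± 0.714 CPM in WT untreated cells (log2 fold change 1.94, SE 0.157, adjusted p = 9.96e-08). Sesn2, a sestrin that restrains mTORC1 (0.91, adjusted p = 2.29e-05), and the polo-like kinase Plk3 (0.65, adjusted p = 5.05e-05) were also higher. In KO cells acetate lowered 7 and raised 1 (median −0.77), led by Gadd45a (−1.49, adjusted p = 4.21e-07), the G2 and S phase protein Gtse1 (−0.77, adjusted p = 1.08e-05) and the phosphatase Ptprv (−1.02, adjusted p = 1.44e-05). In WT cells it lowered 4 and raised 1 (median −0.23), with Gtse1 (−0.56, adjusted p = 0.00134), Plk2 (−0.66, adjusted p = 0.00201) and Sesn2 (−0.44, adjusted p = 0.0206) first. Of these genes only Gadd45a had a called difference between the 2 acetate effects (−1.36, adjusted p = 0.00073). With acetate in both genotypes Sesn2 (0.58, adjusted p = 0.0308) and Plk2 (0.60, adjusted p = 0.0325) were higher in KO cells. Both of these calls were lost without KO acetate replicate 1 or WT acetate replicate 1, 3 or 4, and that of Plk2 also without KO acetate replicate 3. The WT count of 5 calls became 2 without WT acetate replicate 4 and 3 without WT acetate replicate 3 or WT untreated replicate 2, 3 or 4. The fall of Sesn2 in WT cells was not called without WT acetate replicate 3 or 4 or WT untreated replicate 2 or 3.

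Of 11 other p53 targets in apoptosis, without acetate 0 were higher and 3 lower in KO than in WT cells, where 18.0% of all genes were higher and 18.6% lower. In so short a list these counts are not far from that share. The 3 were Bid, the BH3-only protein cut by caspase-8 (−0.40, adjusted p = 0.000619), Apaf1, the scaffold of the apoptosome (−0.28, adjusted p = 0.00173), and Triap1 (−0.27, adjusted p = 0.00741). Without the libraries rich in the unnamed gene the calls of Bid (adjusted p = 0.0533) and Triap1 (adjusted p = 0.0974) were lost. Acetate lowered 7 and raised 2 in KO cells, and lowered 4 and raised 1 in WT cells. Ei24 fell in both (KO −0.47, adjusted p = 5.84e-05; WT −0.37, adjusted p = 0.00234), and Bid rose in both (KO 0.65, adjusted p = 2.05e-06; WT 0.49, adjusted p = 0.000285). Siva1 fell in KO cells (−0.47, adjusted p = 0.000295) and Apaf1 in WT cells (−0.30, adjusted p = 0.00288). Between KO and WT cells with acetate 0 were called.

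Among 15 targets in DNA repair and metabolism, 2 were higher and 2 lower in KO than in WT cells without acetate, somewhat below the 18.0% and 18.6% of all genes. Gls2, the liver-type glutaminase (−0.92, adjusted p = 1.3e-05), and Tigar, which lowers fructose-2,6-bisphosphate (−0.26, adjusted p = 0.00949), were lower, and Rrm2b, a ribonucleotide reductase subunit (0.74, adjusted p = 0.00597), was higher. The call of Rrm2b was lost without the libraries rich in the unnamed gene (adjusted p = 0.178). In KO cells acetate raised 2 and lowered 4: Tigar (0.67, adjusted p = 6.68e-07) and Gls2 (1.02, adjusted p = 2.02e-06) rose, and Pml fell (−0.37, adjusted p = 0.000221). In WT cells it raised 1 and lowered 5, led by Pml (−0.32, adjusted p = 0.00334), the adenylate kinase Ak1 (−0.98, adjusted p = 0.00365) and Tigar, which rose (0.34, adjusted p = 0.00387). These 6 calls became 3 without WT acetate replicate 1 or 4. With acetate 0 of the 15 were called between KO and WT cells.

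**Figure D4:**
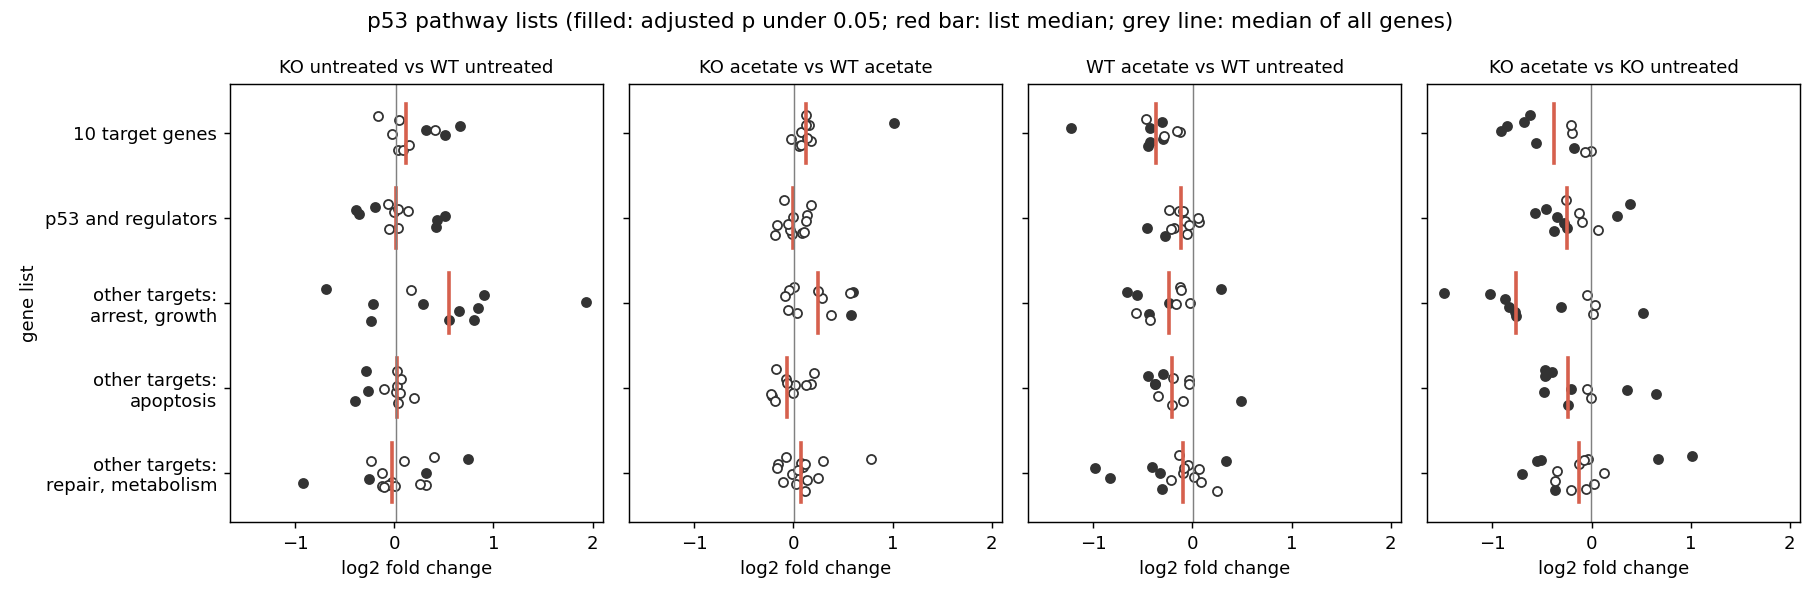
Log2 fold changes of the 10 p53 target genes and of the lists of p53 regulators and other p53 targets in the comparisons of KO with WT cells and of acetate with untreated cells; each point is a gene, filled where its adjusted p was under 0.05, the red bar is the list's median and the grey line the median of all genes. The arrest and growth list lies highest for KO against WT without acetate, with a median of 0.55, and lowest for acetate in KO cells, with a median of −0.77.

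The BCL2 family partners of Bax and Bbc3 split in both directions. Without acetate 3 of 12 tested were higher and 4 lower in KO than in WT cells. Bak1, the other pore former beside Bax, averaged 79.9 ± 12.0 CPM in KO untreated and 128 ± 5.59 CPM in WT untreated cells and so was lower where Bax was higher (log2 fold change −0.68, SE 0.0831, adjusted p = 7.32e-06). Bcl2l1, which encodes the survival protein BCL-XL, was higher (0.51, adjusted p = 0.000141), and Bid was lower as given above. In KO cells acetate raised 6 and lowered 4, led by Bik (1.59, adjusted p = 7.16e-07) and Bid, which rose, and Bcl2, which fell (−0.43, adjusted p = 0.000378). In WT cells 3 rose and 1 fell, with Bid, Bik (0.79, adjusted p = 0.00308) and the fall of Pmaip1, which encodes NOXA (−0.38, adjusted p = 0.02), first. The call of Pmaip1 was lost without WT acetate replicate 1, which left 2 of the 4 calls, or WT untreated replicate 4. With acetate 0 of the 12 were called between the genotypes.

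A list of 14 tested cell cycle regulators held other inhibitors of cyclin-dependent kinases beside the cyclins, kinases and Pcna that p21 acts on. Without acetate 1 of the 14 was higher and 4 were lower in KO than in WT cells. The lower ones included the inhibitor Cdkn2d (−0.70, adjusted p = 5.07e-06), Cdk2 (−0.34, adjusted p = 0.000138) and Ccne1 (−0.62, adjusted p = 0.000326). Acetate raised 3 and lowered 7 in KO cells and raised 2 and lowered 4 in WT cells. Cyclin D3, Ccnd3, fell in both (KO −0.58, adjusted p = 2.08e-05; WT −0.50, adjusted p = 0.000668). Pcna (−0.51, adjusted p = 4.97e-05) and Cdk4 (−0.51, adjusted p = 6.22e-05) fell in KO cells, and Cdkn2c (−0.45, adjusted p = 0.0033) and Ccna2 (−0.28, adjusted p = 0.00427) in WT cells. Of the 13 genes repressed through p21 and the DREAM complex, 0 were higher and 6 lower in KO than in WT cells without acetate, led by Ccnb2 (−0.57, adjusted p = 5.63e-06), Plk1 (−0.45, adjusted p = 1.67e-05) and Ccnb1 (−0.44, adjusted p = 4.3e-05), while Cdkn1a mRNA was not called. With acetate 2 of them, Ccnb1 (−0.32, adjusted p = 0.0278) and Ccnb2 (−0.32, adjusted p = 0.0337), were lower in KO cells, and both calls were lost without KO acetate replicate 1 or 3 or WT acetate replicate 3 or 4 and under scaling by library totals (adjusted p = 0.0508 for each). The count was 4 without KO acetate replicate 2 or KO untreated replicate 4. Acetate lowered 5 in WT cells, with Cdc20 (−0.53, adjusted p = 0.000579) first, and 6 in KO cells, also with Cdc20 (−0.70, adjusted p = 5.82e-06) first. Under scaling by library totals the KO count became 1 higher and 1 lower, and the median moved to 0.01, against −0.09 as reported. It was 3 calls without KO acetate replicate 1 or 4.

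Genes of the integrated stress response, which is known to induce some p53 targets through ATF4 and CHOP, had the largest median of the 9 lists for KO against WT cells. Without acetate 7 of 9 were higher and 0 lower in KO than in WT cells (median 1.78). Atf4, its central factor, averaged 570.3 ± 35.5 CPM in KO untreated and 292 ± 8.31 CPM in WT untreated cells (0.96, adjusted p = 1.84e-06), and Atf5 averaged 50.9 ± 5.63 CPM in KO untreated and 14.9 ± 0.925 CPM in WT untreated cells (1.78, adjusted p = 1.3e-08). The third by adjusted p was Sesn2, which is also on the arrest list. In KO cells acetate lowered 6 and raised 0 (median −0.77), with Atf5 (−1.90, adjusted p = 8.73e-10), Atf4 (−0.67, adjusted p = 3.94e-05) and Sesn2 (−0.77, adjusted p = 6.06e-05) first. It lowered 3 without the libraries rich in the unnamed gene. In WT cells 2 fell, Sesn2 and Atf5 (−0.36, adjusted p = 0.0431), and 0 rose (median −0.06). The Atf5 call in WT cells was lost in 8 of the 16 fits without 1 library. The interaction was called for Atf5 (−1.55, adjusted p = 1.46e-05) and Atf4 (−0.67, adjusted p = 0.00627). With acetate Sesn2 alone of the 9 was higher in KO cells, a call lost without 4 libraries as given above.

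FOXO factors also induce Bbc3, and 11 of their targets in T cells were examined. Without acetate 2 were higher and 1 lower in KO than in WT cells: Bcl2l11, which encodes BIM (0.58, adjusted p = 0.00148), and Txnip (0.46, adjusted p = 0.0159) were higher, and Ccng2 was lower (−0.50, adjusted p = 0.00441). The call of Txnip was lost without KO untreated replicate 2 and without the libraries rich in the unnamed gene (adjusted p = 0.185). In KO cells acetate lowered 8 and raised 0, among them Txnip (−0.80, adjusted p = 0.000212) and Pik3ip1 (−0.76, adjusted p = 0.000336). In WT cells 4 fell, Txnip (−0.47, adjusted p = 0.0319) and Pik3ip1 (−0.47, adjusted p = 0.0325) among them, and 0 rose. Without WT acetate replicate 1 or 4 or WT untreated replicate 2 or 4 the calls of Txnip and Pik3ip1 in WT cells were lost, likewise that of Txnip without WT acetate replicate 3 and that of Pik3ip1 without WT untreated replicate 3. Under scaling by library totals 1 of the 11 fell in WT cells. With acetate 0 of the 11 were called between KO and WT cells, and 2 without KO acetate replicate 2.

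KO acetate set against WT untreated cells gave 0 higher and 3 lower of the p53 regulators, 2 and 2 of the arrest genes and 1 and 5 of the apoptosis genes. Of all genes, 12.9% were higher and 13.5% lower in this comparison. It gave 1 and 2 of the repair and metabolism genes, 5 and 1 of the BCL2 family and 2 and 8 of the cell cycle regulators. The counts were 0 and 10 of the DREAM genes, 1 and 0 of the stress response genes and 0 and 2 of the FOXO targets. Trp53 was among the lower regulators (−0.42, adjusted p = 0.00775). Of the arrest genes Plk3 was higher (0.67, adjusted p = 9.78e-05) and Gtse1 lower (−0.60, adjusted p = 0.000451). Of the DREAM genes Ccnb2 (−0.66, adjusted p = 4.26e-06), Cdc20 (−0.84, adjusted p = 5.35e-06) and Foxm1 (−0.48, adjusted p = 2.94e-05) came first by adjusted p. Without the libraries rich in the unnamed gene the BCL2 family count became 2 higher and 0 lower, 6 FOXO targets were lower, and 0 stress response genes were called. The single stress response call, Atf4, was lost in 8 of the 16 fits without 1 library. Without KO acetate replicate 2 the count of repair and metabolism calls was 5 and that of FOXO targets 6, and without KO acetate replicate 1 or WT untreated replicate 1 or 2 the BCL2 family had 3, 3 and 2 calls.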

How the data were processed

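Per the labels' protocols, RNA came from a NucleoSpin kit and libraries from a stranded TruSeq mRNA kit. The authors deposited estimated counts, as whole numbers, in 1 table of 16 libraries, and no source used here records how they were rounded. Salmon, DESeq2 and DESeq appear in the submitters' processing notes, with no version. Not given in the sources used here are build, annotation and the strand setting of the counting. The deposited file listed 15571 genes, each with at least 10 counts in at least 3 libraries, of which 15221 identifiers matched a name in the reference tables and 350 did not. Totals of 24.57 to 33.72 M counts per library set the precision.

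These estimated counts entered edgeR 4.0.16 (R 4.3.3, with limma 3.58.1). Libraries were scaled by TMM, low genes removed by filterByExpr with the groups as its design, and contrasts tested with the quasi-likelihood F test, robust option on. One fit held all 16 libraries without a replicate term, and Benjamini-Hochberg adjustment ran over the 14985 genes tested. Every adjusted p printed comes from this test where no other tool is given. CPM is the count scaled to the effective library size. The common biological coefficient of variation was 0.14. The alternatives were DESeq2 1.42.0, other scalings and filters, the groups of a comparison alone, a replicate block, leaving out each library, and leaving out the 4 libraries in which 1 unnamed gene took over 3% of counts. Replicate pairs within groups differed by more than sampling noise (6.18 to 214 chi-square units per degree of freedom), and none was counted as a duplicate.

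The 10 targets and all lists were chosen with earlier results of these data known. All 10 targets are named in every comparison, and of each list up to 3 called genes with the smallest adjusted p, except that some are not reported here. The genes most alike were sought for targets called in at least 2 of the 4 comparisons that differ in 1 factor, among tested genes of at least 5 CPM, without predicted, unnamed, receptor-segment and sex-linked genes. Promoters came from RefSeq windows in GRCm38.p6. No list was tested as a set.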

Additional observations from a re-analysis of the deposited data

Results flagged for a closer look

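Within groups of 4 libraries, 2 values stood far from the other 3. Ccng1 in WT acetate replicate 1 was at 334 CPM, and the gap to the nearest of the other libraries was 0.94 of the range of the group. Aen in the same library was at 82.4 CPM, with a gap of 0.98 of the range. Both gaps exceed the 95% critical value of Dixon's test for 4 libraries. In all 40 groups were examined, of which chance flags about 1 in 20. Both values come from the library in which all 10 targets lay below their group mean, a count that was not made over all genes.

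Among the genes of the lists, the acetate effect differed between the genotypes for 13 of 103 genes by the interaction test, which is 12.6%, where 6.37% of all genes were called above 0 and 5.54% below. The share of list genes is thus near that of all genes. The acetate effect was more positive in KO than in WT cells for Apaf1 (0.30, adjusted p = 0.0324), Bak1 (0.52, adjusted p = 0.00723), Bik (0.80, adjusted p = 0.0331), Cdkn2d (0.38, adjusted p = 0.0388), Gls2 (0.77, adjusted p = 0.00589), Tigar (0.34, adjusted p = 0.0371), Triap1 (0.39, adjusted p = 0.018) and Trp53bp1 (0.33, adjusted p = 0.019). It was more negative in KO than in WT cells for Atf4 (−0.67, adjusted p = 0.00627), Atf5 (−1.55, adjusted p = 1.46e-05), Bcl2l11 (−0.61, adjusted p = 0.0295), Chek1 (−0.39, adjusted p = 0.0436) and Gadd45a (−1.36, adjusted p = 0.00073). Leaving out 1 library at a time lost the call of Apaf1 in 10, Bik in 9, Cdkn2d in 11, Tigar in 10, Bcl2l11 in 10 and Chek1 in 13 of 16 fits. Without the 4 libraries rich in the unnamed gene the calls of Apaf1, Atf4, Bak1, Bik, Cdkn2d, Chek1, Triap1 and Trp53bp1 were lost (adjusted p 0.0658 to 0.33).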

How the results depend on the processing

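The count of the 10 targets called moved under these alternatives, by over 1.5 times except for acetate in KO cells. Those for list genes were chosen after seeing the data. For KO against WT without acetate, 3 became 5 when only these groups were fitted, 1 without the libraries rich in the unnamed gene, and 1 to 4 without 1 library at a time. With acetate 1 became 0 with library totals, 0 with only these groups, and 0 to 1 without 1 library. Without 1 library at a time, acetate called 3 to 7 in WT cells and 4 to 6 in KO cells, KO acetate against WT untreated 2 to 5, and the interaction 0 to 1. DESeq2 called 1 for the interaction. Over all genes, KO against WT with acetate gave 150 calls, against 78 with library totals, 826 in DESeq2, 16 with only these groups, 535 without the libraries rich in the unnamed gene, and 21 to 661 without 1 library. Without those libraries KO against WT without acetate gave 3361 calls, against 5481, and the interaction 1010, against 1785.

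With the replicate number as a block, KO acetate against WT untreated called 6 targets, the interaction 1 (Bbc3, −0.48, adjusted p = 0.0105), and KO against WT with acetate 408 genes. Cdkn1a was lower with acetate under the block in WT cells (−0.29, adjusted p = 0.00401) and KO cells (−0.22, adjusted p = 0.00865). The numbers share no stated source. Same-number libraries had correlations of deviations from −0.084 to 0.23 over 24 pairs, 9 of them above 0.1. Of 16 libraries, 9 correlated best with their own number among the 4 replicate numbers. Whether the numbers mark a shared source was not tested.

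Signs turned only for differences that were not called. With library totals these were Mdm2 and Cdkn1a for KO against WT without acetate (−0.021 and −0.016), Mdm2 (0.10) and Zmat3 (0.032) for acetate in KO cells, and Aen for KO acetate against WT untreated (0.016) and for the interaction (0.040). Without the libraries rich in the unnamed gene they were Cdkn1a for KO against WT without acetate (−0.049), Trp53inp1 (−0.021), Phlda3 (−0.0019) and Zmat3 (−0.014) for KO against WT with acetate, and Mdm2 for KO acetate against WT untreated (−0.061). Leaving out 1 library gave ranges across 0 for KO against WT without acetate in Cdkn1a (−0.052 to 0.12), Mdm2 (−0.00015 to 0.065) and Trp53inp1 (−0.054 to 0.040). With acetate they were Bax (−0.043 to 0.16), Ccng1 (−0.090 to 0.0042), Phlda3 (−0.0074 to 0.29), Trp53inp1 (−0.026 to 0.15) and Zmat3 (−0.018 to 0.13). Mdm2 crossed 0 for acetate in KO cells (−0.055 to 0.032) and for KO acetate against WT untreated (−0.015 to 0.069), where Aen also did (−0.050 to 0.013). The interaction crossed 0 in Aen (−0.10 to 0.024), Cdkn1a (−0.019 to 0.19) and Trp53inp1 (−0.0045 to 0.18). The causes were not tested. Eda2r, at 12 to 64 counts per library, is limited by depth.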
